A study of Mus musculus with 18 samples.

Results

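Sox2, Sox21, Scgb3a2, Scgb1a1 and Cyp2f2 were followed in embryonic mouse lungs in which the epithelium had lost Rptor, Tfam or Cox10. These 5 genes, of 23420 in the tables, were chosen by symbol as a proximal airway factor, its relative and markers of airway secretory cells. Whole lungs were collected at 14.5 days post coitus (dpc) and analysed by bulk RNA-seq, with 3 samples in each of 6 groups, 18 in all. Deficient lungs had the genotype Rptorf/f; ShhCre/+, Tfamf/f; ShhCre/+ or Cox10f/f; ShhCre/+ (2 floxed alleles). Their littermate controls were Rptorf/+; ShhCre/+, Tfamf/+; ShhCre/+ or Cox10f/+; ShhCre/+ (1 floxed allele), so that every group carried the Cre allele. Cre was expressed from the Shh locus, which is active in the lung epithelium, whereas the RNA came from all cells of the lung. Each line was held in a table scaled on its own, and deficient lungs were compared only with the controls of their own line.

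During branching, the epithelium of the mouse lung is divided into a proximal domain, marked by the transcription factor SOX2, and distal tips, marked by SOX9. Cells that leave the tips turn on Sox2 and form the conducting airways, where secretory (club) cells, ciliated cells, neuroendocrine cells and, in the large airways, basal cells arise. Secretory cells make secretoglobins and are rich in cytochrome P450 enzymes. The product of Rptor is part of mTOR complex 1 (mTORC1), that of Tfam maintains mitochondrial DNA, and that of Cox10 takes part in the assembly of complex IV of the respiratory chain.

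Values are normalised reads, that is, reads of a gene over the sample's size factor, and a value of 1 stood for about 1 read. They summed to between 27727202 and 29611064 per sample. Rptor, Tfam and Cox10 themselves overlapped between deficient and control lungs of their own lines (limma adjusted p = 0.570, 0.472 and 0.979), and a count over the whole gene in a whole lung does not check a deletion of part of it in the epithelium. The epithelial genes Epcam, Cdh1 and Nkx2-1, which encode surface and adhesion proteins and a lung transcription factor, were abundant in every sample. Deficient replicate 3 of the Cox10 line stood apart from the other samples of its line. It was the highest of the 6 samples for 30.7% of the 14937 genes tested in this line and the lowest for 30.3%. The members' log2 differences in this line are given with and without it. Deficient replicate 3 of the Tfam line had a summed level of 949 over 9 genes of oesophagus and basal cells, against 177 to 368 in the other 5 samples of that line.

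The loci are given for mm10 (GRCm38) in the GENCODE annotation. Sox2 lies on chromosome 3 (34650405 to 34652461, plus strand) and Sox21 on chromosome 14 (118233232 to 118237030, minus strand), each with a single exon. Sox21 shares exonic bases with Gm4675 on the opposite strand. Cyp2f2 is on chromosome 7 (27119909 to 27133660, plus strand) with 11 exons, and it overlaps Gm15883 on the opposite strand. Scgb1a1 is on chromosome 19 (9083636 to 9087958, minus strand). Whether reads were counted by strand is not given in the sources used here, so for Sox21 and Cyp2f2 reads of the antisense neighbour cannot be told apart.

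The 250 bases before the RefSeq start are shown for Sox2, Sox21 and Cyp2f2, 3 of the 4 members with a lower level in Rptor-deficient lungs. Those of Scgb3a2 are not shown. Sequences are 5′ to 3′ on the strand of the gene (RefSeq, GRCm38.p6), and capitals mark a match to a motif searched.
Sox2, chr3:34649745-34649994, plus strand: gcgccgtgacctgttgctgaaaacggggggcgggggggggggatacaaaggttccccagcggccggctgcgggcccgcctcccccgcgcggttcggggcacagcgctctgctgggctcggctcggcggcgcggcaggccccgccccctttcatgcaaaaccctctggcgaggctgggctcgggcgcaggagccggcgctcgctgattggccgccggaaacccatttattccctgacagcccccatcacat
Sox21, chr14:118237031-118237280, minus strand: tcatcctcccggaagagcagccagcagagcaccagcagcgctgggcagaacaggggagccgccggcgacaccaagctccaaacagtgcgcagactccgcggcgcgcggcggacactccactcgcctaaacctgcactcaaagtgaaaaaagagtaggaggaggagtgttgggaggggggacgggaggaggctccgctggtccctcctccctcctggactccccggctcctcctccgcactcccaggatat
Cyp2f2, chr7:27119705-27119954, plus strand: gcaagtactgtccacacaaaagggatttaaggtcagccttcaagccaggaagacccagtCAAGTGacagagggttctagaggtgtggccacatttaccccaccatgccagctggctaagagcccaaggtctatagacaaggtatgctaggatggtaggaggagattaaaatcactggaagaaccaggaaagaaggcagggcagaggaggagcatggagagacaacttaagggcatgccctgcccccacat
The search covered both strands for ACAAT (a SOX core), CAAGTG (NKX2-1) and TGTTTAC (FOXA). The only match was CAAGTG in the Cyp2f2 promoter, its first base 191 bases before the start. Of 32851 promoters of this length in the same table, 27.7% held ACAAT, 11.6% held CAAGTG and 3.17% held TGTTTAC.

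Control lungs expressed Sox2 and Scgb3a2 at like levels per length in 2 of the 3 lines. In controls of the Rptor line, Scgb3a2 had 9.40 ± 0.643 and Sox2 6.90 ± 1.66 RPKM (reads scaled by exon length and by the total of the sample, SD, n = 3). Cyp2f2 came next with 1.73 ± 0.877, followed by Sox21 with 0.726 ± 0.154 (RPKM, SD, n = 3). Controls of the Tfam line had RPKM levels of 9.06 ± 2.01 for Scgb3a2, 9.94 ± 0.973 for Sox2, 4.69 ± 1.90 for Cyp2f2 and 0.853 ± 0.0581 for Sox21. Sox2 and Scgb3a2 thus changed places between these lines, by less than their spread in the Tfam line. In controls of the Cox10 line Sox2 was at 7.92 ± 1.48 RPKM, but Scgb3a2 was only at 1.35 ± 0.502 and Cyp2f2 at 0.0447 ± 0.0255. Sox21 was at 0.716 ± 0.127, above Cyp2f2, and Epcam was at 71.4 ± 1.31 in these lungs. Over the 9 control lungs Sox2 ranged from 307 to 608 and Sox21 from 62.8 to 97.5 normalised reads. Sox21 overlapped between all lines. Sox2 in Cox10 controls overlapped with both other lines, but all Rptor controls (at most 506) lay just below all Tfam controls (at least 510). Scgb3a2 and Cyp2f2 in Cox10 controls lay below every control of the other lines. Between lines the tables agreed closely in scale, with medians of the log2 ratio of control means of 0.070 (Rptor over Tfam), -0.0010 (Rptor over Cox10) and -0.059 (Tfam over Cox10) over 14009 genes. Because the lines were scaled separately, these levels are a description. Sftpc, a gene of distal cells and later of alveolar type 2 cells, was likewise lowest in Cox10 controls, with 8661 to 14009 normalised reads in Rptor controls, 5619 to 7210 in Tfam controls and 1241 to 1422 in Cox10 controls (Sftpc was named after its values were seen). What set the lines apart was not tested.

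**Figure D1:**
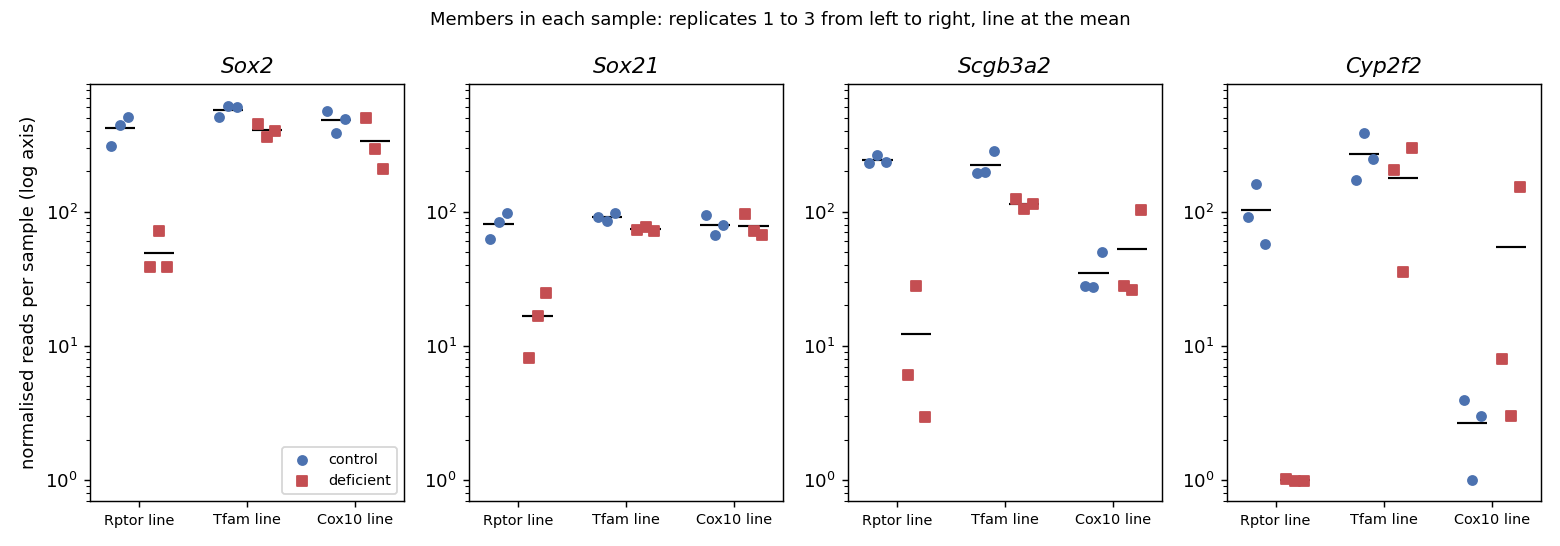
Normalised reads (vertical, log axis) of Sox2, Sox21, Scgb3a2 and Cyp2f2 in each of the 18 samples, by line, with controls as blue circles, deficient lungs as red squares and a bar at the mean of 3. All 4 genes are separated in the Rptor line, Sox2, Sox21 and Scgb3a2 are separated by smaller steps in the Tfam line, and 1 deficient sample of the Cox10 line stands high for Scgb3a2 (104) and Cyp2f2 (153).

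To ask how loss of mTORC1 affected the proximal domain, Sox2 was examined first. In the Rptor line it had 307, 444 and 506 normalised reads in control replicates 1, 2 and 3. The deficient lungs had 38.8, 71.3 and 38.5. The highest deficient lung lay far below the lowest control, with a mean of 419 ± 102 in controls against 49.5 ± 18.9 (SD, n = 3). This was a log2 difference of -3.09 (SE 0.272, limma adjusted p = 0.000164), or 8.49-fold lower. With the mean level of Epcam, Cdh1 and Nkx2-1 as a covariate, which did not overlap between the groups of any line, it was -2.85 and short of the threshold (limma adjusted p = 0.304). Tfam controls had 510, 608 and 606 normalised reads of Sox2, and Tfam-deficient lungs had 453, 361 and 396. The groups did not overlap, but the step was small, with a log2 difference of -0.51 (SE 0.105, limma adjusted p = 0.0189) and a 1.43-fold lower level. This call was lost without deficient replicate 3, the sample with high oesophagus and basal cell genes (log2 difference -0.50, limma adjusted p = 0.0774), without control replicate 2 (-0.47, limma adjusted p = 0.0627) and without deficient replicate 2 (-0.44, limma adjusted p = 0.0778). It was also lost when the spread was shared over all 18 samples (limma adjusted p = 0.407) and with the epithelial covariate (-0.66, limma adjusted p = 0.259). For Sox2 in the Cox10 line the values were 560, 386 and 491 in controls and 503, 292 and 207 in deficient lungs. Deficient replicate 1 lay within the control range and the others below it. The log2 difference was -0.60 (SE 0.297) and did not pass the threshold (limma adjusted p = 0.436), and it was -0.31 without deficient replicate 3 (limma adjusted p = 0.602) and -0.94 without deficient replicate 1 (limma adjusted p = 0.132). With the epithelial covariate, again without overlap between the groups, it was -1.84 and passed (limma adjusted p = 0.0176).

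Sox21, a factor related to SOX2 that is expressed in the proximal airway, passed the threshold in the Rptor line alone. There it had 62.8, 83.9 and 97.5 normalised reads in controls and 8.16, 16.8 and 24.7 in deficient lungs, without overlap (means 81.4 ± 17.5 and 16.6 ± 8.28, SD, n = 3). The log2 difference was -2.33 (SE 0.374, limma adjusted p = 0.00223), but with the epithelial covariate it turned to 1.5 and did not pass (limma adjusted p = 0.565). Sox21 in Tfam controls was at 91.4, 84.9 and 97.0, while Tfam-deficient lungs had 73.4, 77.4 and 72.3. These groups did not overlap either, yet the log2 difference of -0.29 (SE 0.138) did not pass (limma adjusted p = 0.317). The Cox10 line gave 94.3, 66.6 and 79.0 in controls and 96.8, 71.4 and 67.2 in deficient lungs, which overlapped throughout (log2 difference -0.031, SE 0.206, limma adjusted p = 0.959, 0.070 without deficient replicate 3 and -0.51 with the epithelial covariate).

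Scgb3a2, which encodes a secretoglobin and is an early marker of airway secretory cells, was lower in both Rptor- and Tfam-deficient lungs. In the Rptor line the controls had 232, 264 and 236 normalised reads. The deficient lungs had 6.12, 27.7 and 2.96, so that replicate 2 kept more than the other two. The log2 difference was -4.71 (SE 0.604, limma adjusted p = 0.000816), and -5.72 and short of the threshold with the epithelial covariate (limma adjusted p = 0.348). As reads, 734 were counted in the 3 controls and 37 in the 3 deficient lungs. Scaled by the total reads of the groups, the ratio was 19.6, with a 95% interval of 14.1 to 28.1 that covers counting error only. Tfam controls had 195, 196 and 281 normalised reads of Scgb3a2, and Tfam-deficient lungs had 125, 104 and 113. The groups did not overlap and the log2 difference was -0.95 (SE 0.155, limma adjusted p = 0.00534), a 1.93-fold lower level. It passed in each of the 6 fits that left out a sample (limma adjusted p 0.00760 to 0.0259), but not when the spread was shared over all 18 samples (limma adjusted p = 0.447) or with the epithelial covariate (-0.78, limma adjusted p = 0.361). Scgb3a2 was lower in Cox10 controls, with 27.8, 27.2 and 50 normalised reads, and the Cox10-deficient lungs had 27.9, 26.1 and 104. Deficient replicates 1 and 2 lay close to the lower controls and deficient replicate 3 above all controls. The log2 difference was 0.33 (SE 0.526, limma adjusted p = 0.802), and without that sample it turned to -0.30 (limma adjusted p = 0.712). With the epithelial covariate it was 2.23 (limma adjusted p = 0.0907).

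Cyp2f2, a cytochrome P450 typical of club cells, was nearly absent from Rptor-deficient lungs. Their controls had 91.7, 161 and 57.7 normalised reads, against 1.02, 0.990 and 0.988 in deficient lungs, which is 1 read in each. The 311 reads of the controls and the 3 reads of the deficient lungs gave a ratio of 102 after scaling by the total reads of the groups (95% interval 34.7 to 500, counting error only). The log2 difference was -5.58 (SE 0.394, limma adjusted p = 5.75e-05), where the gene entered the test through its controls alone. With 1 read in each deficient lung this value is set by the pseudocount, and it was -6.43 with a pseudocount of 0.1 and -4.06 with 5. The epithelial covariate left -6.00, short of the threshold (limma adjusted p = 0.186). Cyp2f2 values in the Tfam line were 172, 385 and 245 in controls and 203, 35.7 and 297 in deficient lungs. A single deficient lung was low and the others lay within the control range. The log2 difference of -0.96 (SE 0.611) did not pass (limma adjusted p = 0.465), and it was -0.041 without deficient replicate 2 (limma adjusted p = 0.964) and 0.19 with the epithelial covariate (limma adjusted p = 0.961). Cyp2f2 was near the limit of detection in the Cox10 line, with 3.97, 1.01 and 3.00 in controls and 7.98 and 3.02 in deficient replicates 1 and 2. Deficient replicate 3 had 153. With 1 sample at 10 or more the gene was not tested across genes there (exact permutation p = 0.2, two-sided, n = 3 each).

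Scgb1a1, the secretoglobin that defines mature club cells, was not yet measurable. All 18 samples together held 6 reads of it, in 4 samples, with at most 2 reads in any. No comparison was made, and a difference was not detectable at this depth.

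Of the 5 members, 4 entered the test in the Rptor and Tfam lines and 3 in the Cox10 line. In Rptor-deficient lungs Sox2, Sox21 and Scgb3a2 passed with a lower level, where 18.2% of the 14940 genes tested did so. Cyp2f2 passed too, but it reached 10 in the 3 controls alone, had to differ once tested, and adds nothing to this count. In the Tfam line 2 of 4 did, against 2.63% of 15053 genes, and in the Cox10 line 0 of 3, against 0.335% of 14937 genes. None of these 3 had an unadjusted limma p below 0.05 in the Cox10 line, where 13.0% of genes had. All values of deficient lungs lay below all those of controls for the same 3 members in the Rptor line (26.0% of genes) and 3 of 4 in the Tfam line (11.8% of genes). This held for 0 of 3 in the Cox10 line (10.8% of genes).

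Since whole lungs were used, fewer airway cells and less RNA per cell cannot be told apart. The members were therefore set against epithelial genes of the same sample. All 3 epithelial genes were themselves lower in Rptor-deficient lungs, Cdh1 alone passed in the Tfam line, and none passed in the Cox10 line. Epcam had a log2 difference of -0.77 after deletion of Rptor, -0.048 after that of Tfam and -0.30 after that of Cox10 (limma adjusted p = 0.00199, 0.862 and 0.260). Cdh1, which encodes E-cadherin, had -1.89, -0.55 and -0.43 (limma adjusted p = 2.16e-05, 0.000371 and 0.139). For Nkx2-1 the log2 differences were -0.85, -0.22 and -0.45 (limma adjusted p = 0.000738, 0.0803 and 0.1). The mean log2 level of the 3 genes differed by -1.17 (Rptor), -0.27 (Tfam) and -0.40 (Cox10), and that of 18 epithelial genes by -1, -0.23 and -0.34. Of these 18 genes, 17, 7 and 4 passed the threshold with a lower level in the Rptor, Tfam and Cox10 line, where 18.2%, 2.63% and 0.335% of all genes did, and none with a higher one.

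Relative to the 3 epithelial genes, the members kept a lower level in the Rptor line. Relative log2 Sox2 was -3.66 ± 0.395 in controls, against -5.58 ± 0.512 in deficient lungs (SD, n = 3), a difference of -1.91. The differences for Sox21, Scgb3a2 and Cyp2f2 were -1.16, -3.54 and -4.41. For each of the 4 genes the groups did not overlap, and the exact permutation p was 0.1, the smallest that 3 against 3 samples allow. In the fit across genes Sox2, Sox21 and Scgb3a2 passed (limma adjusted p = 2.92e-06, 0.00239 and 4.26e-06), as did Cyp2f2 (limma adjusted p = 2.51e-07), which entered through its controls alone, while 0.763% of genes passed with a lower and 95.3% with either direction. The error of the 3 reference genes enters every gene of this fit alike, and its p-values are therefore too small. Scgb3a2 in the Tfam line had a relative difference of -0.68, again without overlap (exact permutation p = 0.1, n = 3 each, limma adjusted p = 0.00734). Here 1.33% of genes passed with a lower relative level and 50.3% with either direction. Sox2 had -0.24 (exact permutation p = 0.2, n = 3 each), Sox21 -0.015 (p = 1) and Cyp2f2 -0.69 (p = 0.7), and none of these passed in limma. Relative differences in the Cox10 line were -0.21 for Sox2, 0.37 for Sox21 and 0.73 for Scgb3a2 (exact permutation p = 0.8, 0.4 and 0.3, n = 3 each). None passed in limma, where 0.469% of genes passed with a lower relative level and 54.2% with either direction. Without deficient replicate 3 they were 0.20 for Sox2, 0.57 for Sox21 (limma adjusted p = 0.0321, then past the threshold) and 0.20 for Scgb3a2.

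**Figure D2:**
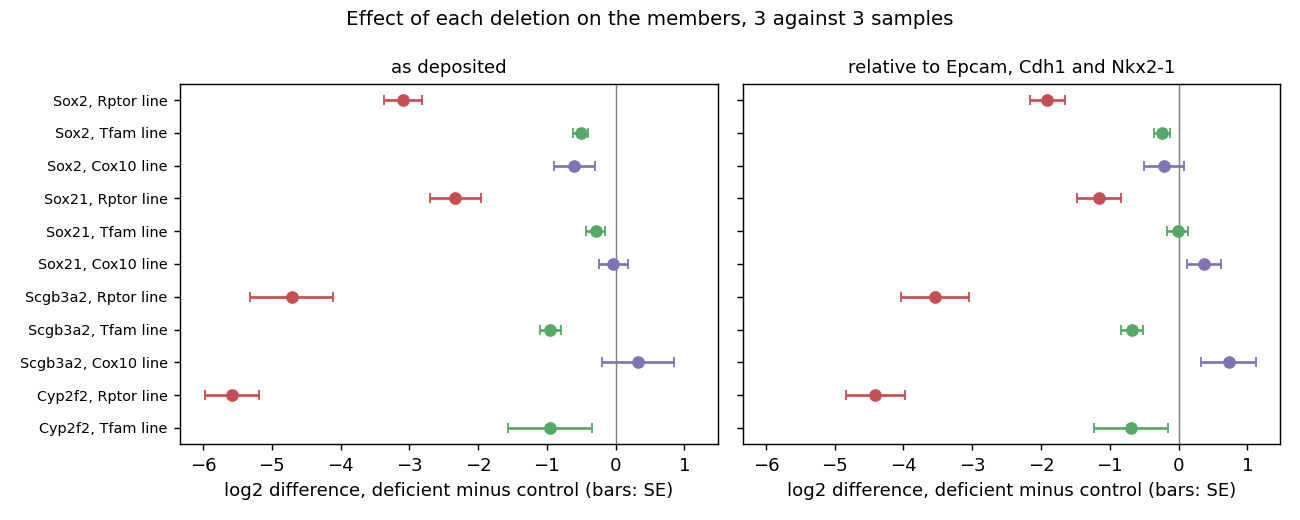
Log2 difference between deficient and control lungs (horizontal, bars are the SE of the limma fit, 3 against 3 samples) as deposited on the left and relative to Epcam, Cdh1 and Nkx2-1 on the right. The Rptor line stays furthest to the left in both panels, as for Sox2 with -3.09 and -1.91, while Sox21 in the Tfam line moves from -0.29 to -0.015.

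Sox9, the distal counterpart of Sox2, did not pass the threshold in any line. It had 1762, 1823 and 1701 normalised reads in Rptor controls and 2010, 1416 and 1522 in deficient lungs. Its log2 difference was -0.11 there, and -0.26 and -0.23 for Tfam and Cox10 (limma adjusted p = 0.495, 0.169 and 0.404). Relative to the epithelial genes, which themselves differed by -1.17, Sox9 had a difference of 1.06 in the Rptor line (exact permutation p = 0.1, n = 3 each). It passed in limma there, but so did 95.3% of genes in either direction (0.763% as lower), and the value is no result about Sox9. It had 0.016 and 0.17 for Tfam and Cox10, short of the threshold. Sox2 amounted to 23.8% ± 6.21 of the reads of Sox9 in Rptor controls (SD, n = 3) and to 3.16% ± 1.64 after deletion of Rptor. This share was 18% ± 3.56 and 14.9% ± 1.49 in the Tfam line and 25.1% ± 5.31 and 20.9% ± 11.6 in the Cox10 line. Cartilage cells also express Sox9. Of 9 cartilage genes in the tables, 5 were lower and 1 higher among 8 tested in the Rptor line, 3 were lower and 1 higher among 7 in the Tfam line, and 1 was lower among 7 in the Cox10 line. Over all genes 18.2%, 2.63% and 0.335% were lower and 16.6%, 2.03% and 0.141% higher in the Rptor, Tfam and Cox10 line. Matn3, 1 of the 5 lower genes (named after its values were seen), reached 10 in Rptor controls alone. Their part in the level of Sox9 was not tested.

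The effect of deletion on Sox2, Sox21 and Scgb3a2 exceeded that in either other line when Rptor was deleted. For Sox2 the effects differed by -2.57 from the Tfam line (95% interval -3.42 to -1.73, limma adjusted p = 0.000597) and by -2.48 from the Cox10 line (-3.33 to -1.64, limma adjusted p = 0.000784). For Sox21 the same differences were -2.04 (limma adjusted p = 0.00344) and -2.30 (limma adjusted p = 0.00163). For Scgb3a2 they were -3.76 (limma adjusted p = 0.00531) and -5.04 (limma adjusted p = 0.000692). Its mean in Cox10 controls was only 35.0, against 244 in Rptor controls, which left less room for a fall in the Cox10 line. The Cox10 effect of 0.33 also turned to -0.30 without deficient replicate 3. Across 14550 genes tested in all lines, 11.2% and 7.48% passed in these contrasts. Relative to epithelial genes the differences from the Tfam line were -1.67, -1.14 and -2.87 for Sox2, Sox21 and Scgb3a2, and those from the Cox10 line -1.71, -1.52 and -4.27. All 6 passed in limma, as did 88.9% and 84.9% of genes, in a fit whose p-values are too small for the reason given above. Between the Tfam and Cox10 lines none of the 3 effects differed past the threshold, where 0.0550% of genes did (0.0275% relative to epithelial genes). The intervals were wide, from -0.76 to 0.94 around 0.089 for Sox2, from -1.11 to 0.60 around -0.26 for Sox21 and from -2.96 to 0.40 around -1.28 for Scgb3a2. Cyp2f2 was not tested in all lines and has no such comparison.

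Other genes of airway secretory cells were read in the same fits. Of 35 listed genes in the tables besides the members, 20 entered the test in the Rptor line, of which 11 were lower (18.2% of all genes were), 2 higher (16.6% of all genes) and 7 did not pass. With the epithelial covariate none of them passed in limma. The share of all genes that passed in that fit was not counted. Since the covariate does not overlap between the groups, this is no result about the secretory genes. Of the 11, Upk3a and Muc5ac (named after their values were seen) reached 10 in controls alone and so had to differ once tested. The median log2 difference of the 20 was -0.86, against 0.0083 over all genes and -0.97 over the 18 epithelial genes. Relative to epithelial genes, 7 of the 20 were lower and 10 higher in the Rptor line, where 0.763% of all genes were lower and 95.3% passed in either direction. The list holds genes of secretory function that other epithelial cells also express. The largest falls among called genes whose mean reached 20 were those of Cldn10, a claudin of club cells, from 333 ± 74.4 to 26.9 ± 6.66 normalised reads (log2 difference -3.58, limma adjusted p = 3.31e-05), and Aldh1a7, an aldehyde dehydrogenase, from 3859 ± 283 to 384 ± 72.3 (-3.34, limma adjusted p = 1.26e-05; SD, n = 3). Muc1, a membrane mucin, fell from 1126 ± 111 to 120 ± 48.0 (log2 difference -3.30, limma adjusted p = 0.000141, SD, n = 3). Fmo1, a flavin monooxygenase, rose from 49.8 ± 12.4 to 130 ± 54.1 (log2 difference 1.30, limma adjusted p = 0.0207, SD, n = 3).

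Of 21 secretory genes tested in the Tfam line, 5 were lower and none higher, with a median of -0.46 (0.00098 over all genes, of which 2.63% were lower and 2.03% higher). With the epithelial covariate 1 passed, again without a count over all genes. Relative to epithelial genes 6 were lower and 4 higher (1.33% of all genes were lower and 50.3% passed in either direction). The same 3 genes had the largest falls among those past the threshold. Muc1 had a log2 difference of -1.29, Aldh1a7 -1.18 and Cldn10 -0.99 (limma adjusted p = 2.51e-05, 8.58e-06 and 0.00230). Of 16 tested in the Cox10 line, 2 were lower and none higher, with a median of -0.13 (0.0014 over all genes, of which 0.335% were lower and 0.141% higher). With the epithelial covariate 4 passed, where the share over all genes was likewise not counted. Set against epithelial genes, 3 were lower and 6 higher (0.469% of all genes were lower and 54.2% passed in either direction). Cftr, the chloride channel, went from 649, 638 and 610 in controls to 321, 380 and 261 in deficient lungs (log2 difference -0.99, limma adjusted p = 0.0293). Aldh1a7 went from 2352, 2195 and 2329 to 1394, 1092 and 1043 (log2 difference -0.97, limma adjusted p = 0.0130). Thus Aldh1a7 was lower in all 3 lines, without overlap in any. The count in the Cox10 line ranged from 0 to 5 when single samples were left out: it was 0 without control replicate 1, 2 or 3, 1 without deficient replicate 1 and 5 without deficient replicate 3.

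Of 24 transcription factors of airway epithelium, 22 were tested in the Rptor line, where 7 were lower and 6 higher (18.2% and 16.6% of all genes). On the relative scale 3 were lower and 14 higher (0.763% of all genes lower, 95.3% in either direction). Elf5, an epithelial ETS factor, fell from 351 ± 135 to 33.3 ± 12 normalised reads (log2 difference -3.35, limma adjusted p = 0.000291; SD, n = 3). Foxa3 and Creb3l1, which act in secretory cells, rose by log2 differences of 0.96 and 0.83, and Cebpa by 0.65 (limma adjusted p = 0.0429, 0.000398 and 0.00207). Of 23 tested in the Tfam line 4 were lower, led by Ehf with -0.94 (limma adjusted p = 0.0221), and 1 was higher, Id1 with 0.48 (limma adjusted p = 0.0108), where 2.63% and 2.03% of all genes were lower and higher. Of 22 tested in the Cox10 line 2 were lower, the Iroquois genes Irx3 with -0.81 and Irx5 with -0.67 (limma adjusted p = 0.00668 and 0.0125), and none was higher (0.335% and 0.141% of all genes). On the scale relative to epithelium 2 factors were lower and 10 higher in the Tfam line, where 50.3% of all genes passed in either direction, and 1 was lower and 10 higher in the Cox10 line, where 54.2% did.

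**Figure D3:**
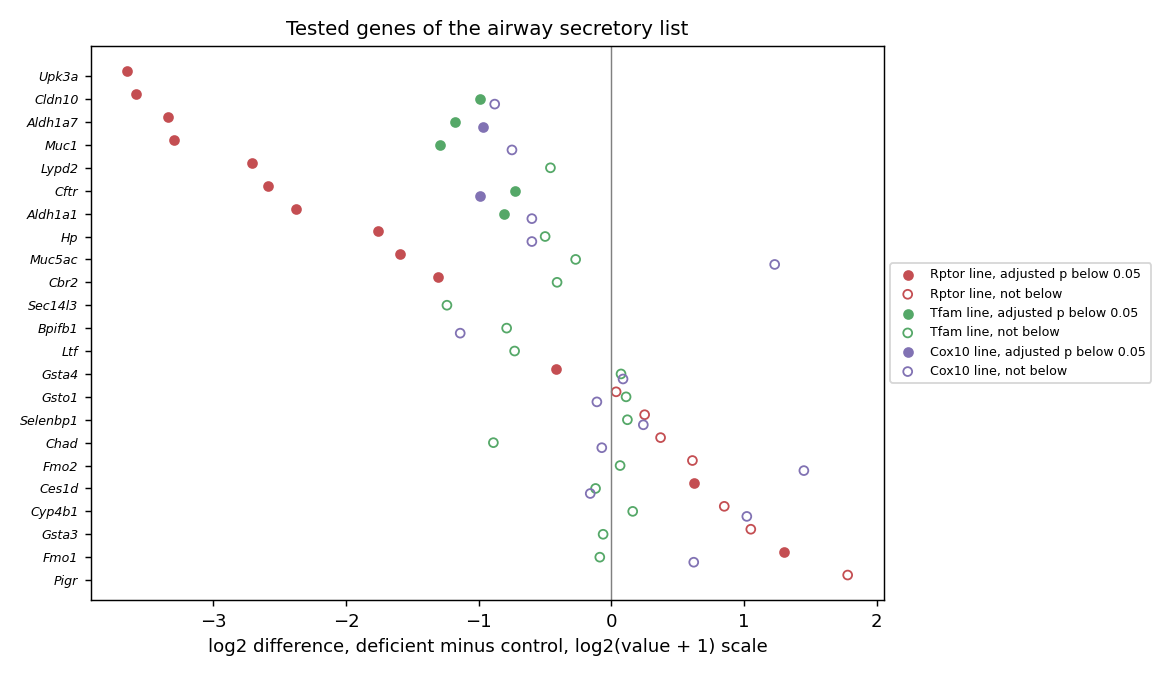
Log2 difference between deficient and control lungs (horizontal) for each tested gene of the airway secretory list (vertical), by line, with filled points where the limma adjusted p was below 0.05. In the Rptor line 11 genes lie to the left and 2 to the right as filled points, whereas the Tfam and Cox10 lines have 5 and 2 filled points, all to the left.

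The samples of the Cox10 line were uneven in their secretory genes. Besides Scgb3a2 and Cyp2f2, deficient replicate 3 was far above the other samples for several secretory genes, which were picked after their values were seen. Cbr2, a carbonyl reductase of club cells, had 61.3 there against 1.01 to 8.93 in the other 5 samples. The mucin genes Muc5b and Muc5ac had 57.3 and 89.0, against 0.999 to 4.02 and 12 to 23. Lypd2 had 55.4, against 4.03 to 10.9, and Fmo2 had 262, against 23.2 to 110. Of the 16 secretory genes tested in this line, 7 were highest in this sample (43.8%) and 4 were lowest (25%), beside 30.7% and 30.3% of all genes tested. The 4 lowest were Aldh1a7 (1043), Cftr (261), Gsto1 (1079) and Bpifb1 (1.98), so the list as a whole was not raised in it. Sftpc was at 4084, against 386 and 562 in the other deficient lungs and 1241 to 1422 in controls. Sox2 and Sox21 were not raised in it and were at their lowest and second lowest of the line, 207 and 67.2.

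**Figure D4:**
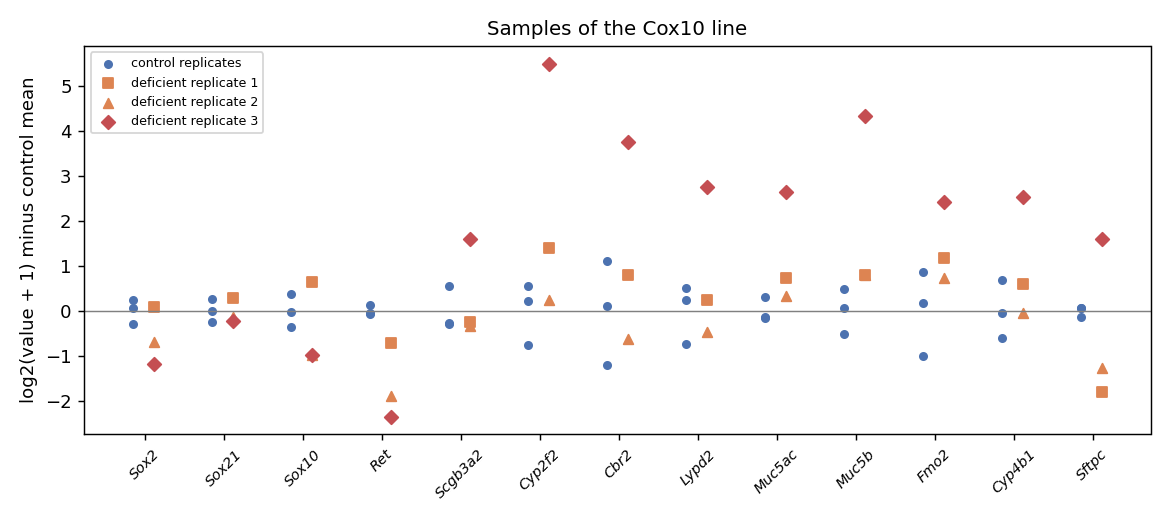
Log2(value + 1) of 13 genes in the 6 samples of the Cox10 line, minus the mean of the 3 controls (vertical), with controls as blue circles and each deficient replicate under its own symbol. Deficient replicate 3 (red diamonds) lies above all other samples for the secretory genes from Scgb3a2 to Cyp4b1 and for Sftpc, and at or below the other samples for Sox2, Sox10 and Ret. Apart from Scgb3a2 and Cyp2f2, the secretory genes shown were picked after their values were seen. Secretory genes that were lowest in this sample are not shown.

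Sox2 is also expressed by glia, neural progenitors, basal cells and the oesophagus, so markers of these cells were read in the same samples. Of 9 tested genes of lung glia and neurons, 2 were lower in the Rptor line, Ret and Erbb3, both named after their values were seen and both also known from epithelium, where 18.2% of all genes were lower. Of 10 tested in the Tfam line 1 was lower, again Ret (log2 difference -1.59, limma adjusted p = 6.82e-05), where 2.63% of all genes were lower, and of 11 in the Cox10 line none passed. Sox10, the defining glial factor, had 24.9 to 36.8 normalised reads in Rptor controls and 20.8 to 61.2 in deficient lungs. The summed level of the 12 listed genes was 2681 to 2785 in Rptor controls and 1707 to 1753 in deficient lungs, and Erbb3 was the most abundant of them. This sum was 2809 to 3040 in Cox10 controls and 2993, 2504 and 1977 in Cox10-deficient replicates 1, 2 and 3, the order of their Sox2 values. Sox10 was at 194, 62.3 and 62.3 in these lungs. Over all 18 samples, deviations of log2 Sox2 from its group mean correlated with those of Sox10 (Pearson r = 0.660), and r was 0.453 over the 15 samples outside the Cox10-deficient group. Samples of a line share a scaling, and no test was made. In the Tfam line the oesophagus and basal cell genes high in deficient replicate 3 included Krt5 (165, against 6.10 to 16.9 in the other samples) and Krt13 (64.5, against 0 to 2.03). Sox2 was at 396 in that lung, between the other deficient lungs. In the Rptor line the summed level of these 9 genes was 200 to 303 in controls and 151 to 201 in deficient lungs. In the Cox10 line it was 223 to 321 and 209 to 287, with Foxe1 at 0 in 5 of the 6 samples. The part of such cells in the level of Sox2 was not tested.

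Related SOX genes and genomic neighbours were read for comparison, beside the 18.2% of all genes that were lower and the 16.6% that were higher in the Rptor line. Of 13 other SOX genes, 9 were tested in each line. In the Rptor line 2 were higher and 1 lower, and in the Tfam and Cox10 lines none passed. Of 11 genes next to the members or sharing a locus with them, 2 were lower and 1 higher among 8 tested in the Rptor line, and none passed in the Tfam or Cox10 line. Sox2ot, the long non-coding RNA whose locus contains Sox2, had 2.96 to 22.0 normalised reads over the 18 samples and overlapped between the groups of each line. Of 10 genes of the distal tips, 6 were lower and 3 higher in the Rptor line, 2 lower and 3 higher in the Tfam line (2.63% and 2.03% of all genes), and none passed in the Cox10 line. Set against epithelial genes, 1 of the 10 was lower and 8 were higher in the Rptor line, a share no larger than the 95.3% of all genes that passed there in either direction.

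Finally, all genes tested in the 3 lines with a mean of at least 50 (12946 genes) were ranked by how closely they followed Sox2 or Scgb3a2 over the 18 samples. By change from the controls of the line, genes most like Sox2 included 5930403L14Rik (Pearson r = 0.978), Matn4 (0.977), Mdh2 (0.962) and Usp39 (0.962). Matn4, which encodes a matrix protein, had log2 differences of -1.69, -0.24 and -0.27 in the lines in the same order (Rptor, Tfam, Cox10), while Mdh2, a mitochondrial malate dehydrogenase, had -0.38, -0.062 and -0.033. Those most like Scgb3a2 were Elf5 (0.962), Elovl7 (0.961), Ildr1 (0.948), Myh14 (0.948) and Wfdc2 (0.946). Their log2 differences in the Rptor line ranged from -3.35 for Elf5 to -1.16 for Elovl7. The large step between Rptor-deficient lungs and the rest enters all of these values. By deviation from the group means, which leaves this step out, the genes most like Sox2 were Tbx1 (r = 0.901), Camk2g (0.897), Tgfbi (0.887), Gm13212 (0.882) and Ngfr (0.868), and those most like Scgb3a2 were Tinag (0.884), Pnoc (0.870), Cers4 (0.837), Anxa4 (0.796) and Cyp2d22 (0.773). As the highest of 12946 genes over 18 samples, all of these r are raised by the selection itself. They were not tested and not computed again without single groups. The lists by the different measures had no gene in common. Within groups, Sox2 and Scgb3a2 themselves correlated with r = 0.131 over 18 samples and 0.696 over the 15 samples outside the Cox10-deficient group. The Rptor-deficient lungs weigh heavily in the latter value. In them Scgb3a2 had only 6, 28 and 3 reads, and replicate 2 was the highest for both genes. No r was computed without these lungs.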

How the data were processed

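Groups and replicate numbers came from the sample labels. The deposited value is a normalised signal for which the authors had scaled each gene's read count by the sample's size factor. All values of a sample were whole multiples of a step of 0.978 to 1.02 (tolerance 0.02). The submitters' processing notes name Trim Galore, HISAT2, featureCounts, DESeq2 and mm10, and the paper's methods name a BGI sequencer. The authors' columns of log2 fold changes, p-values and adjusted p-values were not used.

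Values were analysed as log2(value + 1), which understates changes of low genes. Genes that reached 10 in 3 or more of the 6 samples of a line were tested in limma 3.58.1 (R 4.3.3; lmFit, eBayes with trend), with Benjamini-Hochberg adjustment over all genes tested and a threshold of 0.05, two-sided. The design had allowed for a count test. Relative values are log2 values minus the sample's mean log2 of the reference genes Epcam, Cdh1 and Nkx2-1. Effects were compared between lines in 1 model of 18 samples and 6 groups. The scripts were checked on simulated data. Read ratios are scaled by the total reads of the groups and have exact 95% intervals.

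Named genes were the members, the reference genes, Sox9, per line the 4 largest rises and falls past the threshold (mean of at least 20) in the secretory and factor lists, and the 5 genes most like Sox2 and Scgb3a2. Among these and the listed genes, 2 are not reported here. Members and lists were chosen with earlier results of these data known. Of 36 listed secretory genes Muc16 was not found.

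Nothing says which litter a sample came from, and p-values measure the spread between these samples. No pair of samples agreed within sampling noise (chi-square per gene at least 3.971). Deviations of same-numbered samples correlated with r = 0.221, 0.330 and 0.259 in the Rptor line, where each sample correlated best with its own number. Such a pairing comes from the data and not from the labels. The main fits did not use it in any line, and a replicate block was run only as an alternative. The alternatives were TMM scaling, other filters and pseudocounts, a replicate block, a fit of all 18 samples, an epithelial covariate, other reference genes, exact permutation and leaving out each sample.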

Additional observations from a re-analysis of the deposited data

Results flagged for a closer look

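The effect of deletion differed between lines for 3 members, in a test of the difference itself on 3 deficient and 3 control samples a line. On the log2 scale, Sox2 differed by -2.57 between the Rptor and Tfam lines (limma adjusted p = 0.000597) and by -2.48 between the Rptor and Cox10 lines (limma adjusted p = 0.000784). Sox21 differed by -2.04 (limma adjusted p = 0.00344) and -2.30 (limma adjusted p = 0.00163), and Scgb3a2 by -3.76 (limma adjusted p = 0.00531) and -5.04 (limma adjusted p = 0.000692). Scgb3a2 had a mean of 35.0 in Cox10 controls and 244 in Rptor controls, so the Cox10 line had less room for a fall. For these 3 genes every deficient lung of the Rptor line lay below all of its controls, as for 26.0% of all genes tested there. Both differences of a gene share its Rptor effect and are not separate results. Over all genes, 11.2% passed in the contrast with the Tfam line and 7.48% in that with the Cox10 line. Each of the 6 differences passed in all 18 fits that left out a sample. With 3 samples in a group, single outlying samples were not tested for.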

How the results depend on the processing

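Of 227 values under alternatives that kept all samples, for 37 results, 201 kept their direction and side of the threshold (counts within 1.5 times). TMM scaling, the filter-free fit, pseudocounts of 0.1 and 5, the reference without Cdh1 and that of 18 epithelial genes changed no direction or call of the members they were run on. Counts of secretory genes stayed within 1.5 times, as with 14 instead of 13 in the Rptor line without a filter. Cyp2f2 in the Rptor line moved most with the pseudocount, from -5.58 to -6.43 (0.1) and -4.06 (5). With the epithelial mean as a covariate, which does not overlap between the groups in any line, the log2 differences in the Rptor line were -2.85 (Sox2), 1.5 (Sox21), -5.72 (Scgb3a2) and -6.00 (Cyp2f2), and 0 members and 0 secretory genes passed. In the Tfam line they were -0.66 (Sox2), -0.78 (Scgb3a2) and 0.19 (Cyp2f2), with 0 members and 1 secretory gene past the threshold. In the Cox10 line Sox2 gained it at -1.84 (limma adjusted p = 0.0176), with 1 member and 4 secretory genes, while Scgb3a2 moved to 2.23 and Sox21 to -0.51, short of it. The share of all genes that passed with this covariate was not counted in any line. At a mean of at least 50, 8 secretory genes passed in the Rptor line instead of 13, since fewer genes were tested. The exact permutation test, which cannot go below 0.1, left -1.91, -1.16, -3.54 and -4.41 (Sox2, Sox21, Scgb3a2 and Cyp2f2 relative to epithelium, Rptor line) and -0.68 (Scgb3a2, Tfam line) short of the threshold. In a fit of all 18 samples, Sox2 (-0.51) and Scgb3a2 (-0.95) in the Tfam line lost it, so that 0 members passed. Relative Sox21 in the Tfam line was 0.098 without Epcam and 0.011 without Nkx2-1 in the reference.

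With the replicate block, relative Scgb3a2 in the Cox10 line (0.73) gained the threshold (limma adjusted p = 0.0305). No other call of a member or of a difference between lines changed. In the Rptor line 14 secretory genes passed with the block instead of 13. Same-numbered samples correlated with r = 0.447, 0.202 and 0.049 in this line and -0.312, -0.207 and 0.151 in the Tfam line, so the numbers there do not pair the samples, and only in the Rptor line did every sample correlate best with its own number. Where the cause of a change is not named above, the cause was not tested.

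When each sample was left out, Sox2 in the Tfam line ranged from -0.60 to -0.44, its relative value from -0.37 to -0.17 (limma adjusted p = 0.0327 without deficient replicate 1, then past the threshold), and the members past the threshold from 1 to 2. Relative Sox21 in the Tfam line ranged from -0.054 to 0.057 (0.0099 without control replicate 3) and relative Cyp2f2 from -1.23 to 0.22 (without deficient replicate 2). In the Cox10 line Sox21 ranged from -0.19 to 0.094 (0.094, 0.027 and 0.070 without control replicate 1, deficient replicate 2 and deficient replicate 3), Scgb3a2 from -0.30 to 0.67, relative Sox2 from -0.64 to 0.20, relative Sox21 from 0.11 to 0.57 (limma adjusted p = 0.0321 without deficient replicate 3) and the secretory genes past the threshold from 0 to 5. The difference of the Sox2 effect between the Tfam and Cox10 lines ranged from -0.21 to 0.43 (-0.032 without Cox10 control replicate 1, -0.21 without Cox10 deficient replicate 3). The planned tests on read counts were not run, because the deposited values were kept as normalised values. Scgb1a1 and, in the Cox10 line, Cyp2f2 lie at the limit of the depth.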
